A study of Mus musculus with 7 samples.

Results

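Transcripts of 9 genes of myelin and the oligodendrocyte lineage, out of 25571 rows in the deposited count table, were followed in macrophages sorted from glioblastoma xenografts. The 9 were matched by symbol: Mbp, Mobp, Mog, Mag, Cnp and Cldn11, which encode myelin proteins, Cspg4, which encodes the proteoglycan NG2 of oligodendrocyte precursors, and the transcription factor genes Sox10 and Olig1. The genes were chosen by their levels in these same 7 libraries and the way those differed between Pracinostat and DMSO, so their levels and fold changes are given as a description without a test.

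The tested mice received Pracinostat, an inhibitor of zinc-dependent histone deacetylases, at a labelled dose of 30 mg/kg by oral gavage, 4 times a week for 3 weeks from day 7 after implantation (4 libraries). The labels' treatment protocol also gives 3 mg/kg for the prepared drug, which leaves the dose unsettled. Control mice received the DMSO-containing solvent on the same schedule (3 libraries). All mice were NSG animals, which lack T, B and NK cells, and carried orthotopic T387 human glioblastoma xenografts in the brain. Cells were sorted for CD11b, the integrin chain encoded by Itgam, and the labels do not give the animals' age, sex or number per library, nor say whether the biological replicates came from separate animals.

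Oligodendrocytes wrap axons in myelin, a stack of membrane that basic proteins such as MBP hold together at its cytoplasmic faces. They arise from precursor cells that carry NG2 and the receptor PDGFRA, and SOX10 and OLIG1 act in that lineage, where in mice the class I deacetylases HDAC1 and HDAC2 are also needed for differentiation. Several of these genes are not restricted to the lineage. The Mbp locus also makes golli transcripts in blood and immune cells, which a table by gene symbol cannot separate from those of classic MBP. NG2 also marks pericytes, and in rodents it has been described on activated microglia and macrophages. Mbp and Mobp mRNAs are known to be carried out into the oligodendrocyte's processes.

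Depth ranged from 10142753 to 16950597 counts per library, with 16319 to 19244 genes detected. The sorted identity was clear from the defining markers. Itgam stood at 1448, 1530, 2580 and 1692 CPM with Pracinostat and at 1688, 1410 and 1318 CPM with DMSO, where CPM is the count relative to the library size after TMM scaling. The 12 myeloid markers held 1.06 ± 0.194% of counts (SD, n = 4) with Pracinostat and 0.984 ± 0.0689% (SD, n = 3) with DMSO. The 6 myelin protein genes summed to 1024, 263, 196 and 299 CPM with Pracinostat and 282, 302 and 187 CPM with DMSO. In bulk RNA, fewer oligodendrocytes cannot be told apart from less RNA in each. Counts are of mouse genes, and the T387 cells' own transcripts were not analysed here. Whether human reads were counted under mouse genes was not tested.

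Promoter sequence is shown for 3 genes that stand for the 3 patterns described below: Mobp, which was far higher in 1 library, Cnp, which was even across libraries, and Cspg4, which followed neither. Each line gives the 150 bases from 250 to 101 before the RefSeq gene start on build GRCm38.p6, plus strand, 5′ to 3′, and is not in the coordinates of the counted build (GRCm39). Capitals mark matches to ACAAAG or ACAATG on either strand (on the other strand CTTTGT and CATTGT), letters of the core that SOX factors recognise.
Mobp, chr9:120149492-120149641: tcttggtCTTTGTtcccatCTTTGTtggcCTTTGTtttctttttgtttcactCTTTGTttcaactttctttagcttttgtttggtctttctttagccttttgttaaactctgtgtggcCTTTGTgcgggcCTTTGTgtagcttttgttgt
Cnp, chr11:100574689-100574838: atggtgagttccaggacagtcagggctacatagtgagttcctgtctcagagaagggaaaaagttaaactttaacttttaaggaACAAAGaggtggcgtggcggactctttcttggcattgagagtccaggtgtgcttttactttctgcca
Cspg4, chr9:56864854-56865003: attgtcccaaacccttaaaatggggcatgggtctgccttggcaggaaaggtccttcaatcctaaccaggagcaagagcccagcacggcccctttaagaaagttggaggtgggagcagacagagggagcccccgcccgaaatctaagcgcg

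The Mobp window held 6 matches, all as CTTTGT within a T-rich stretch, the Cnp window held 1 and the Cspg4 window 0. Of 32851 RefSeq promoters, 16.3% held at least 1 match in the same window. The 1 that held 6 or more was that of Mobp itself, whose own count set that threshold. Promoters of 6 of the 9 genes were in the table (not Mbp, Sox10 or Olig1). Those of Mog and Cldn11 had 0 matches and that of Mag, with 3 entries, at most 1. A match describes letters only and says nothing about binding.

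Mbp and Mobp were far higher in 1 Pracinostat library than in any other library. Mbp, the main protein of compact myelin, stood at 548, 172, 83.8 and 153 CPM in Pracinostat libraries 1 to 4, against 134, 175 and 117 CPM with DMSO. Only Pracinostat replicate 1 lay above the DMSO range, and replicate 3 lay below it, so the groups overlapped. Mobp, which encodes a small basic protein of compact myelin, stood at 425, 51.1, 53.6 and 80.8 CPM with Pracinostat and 74.9, 56.4 and 39.0 CPM with DMSO. Again 1 library stood apart, with 6239 Mobp counts in Pracinostat replicate 1 and between 606 and 953 in each of the others.

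Group means follow that library. Mbp averaged 239 ± 209 CPM (SD, n = 4) with Pracinostat and 142 ± 29.9 CPM (SD, n = 3) with DMSO, a log2 fold change of 0.75 ± 0.68 (SE), and Mobp had 1.43 ± 0.95. Without Pracinostat replicate 1 these became -0.06 ± 0.26 for Mbp and 0.13 ± 0.28 for Mobp.

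**Figure D1:**
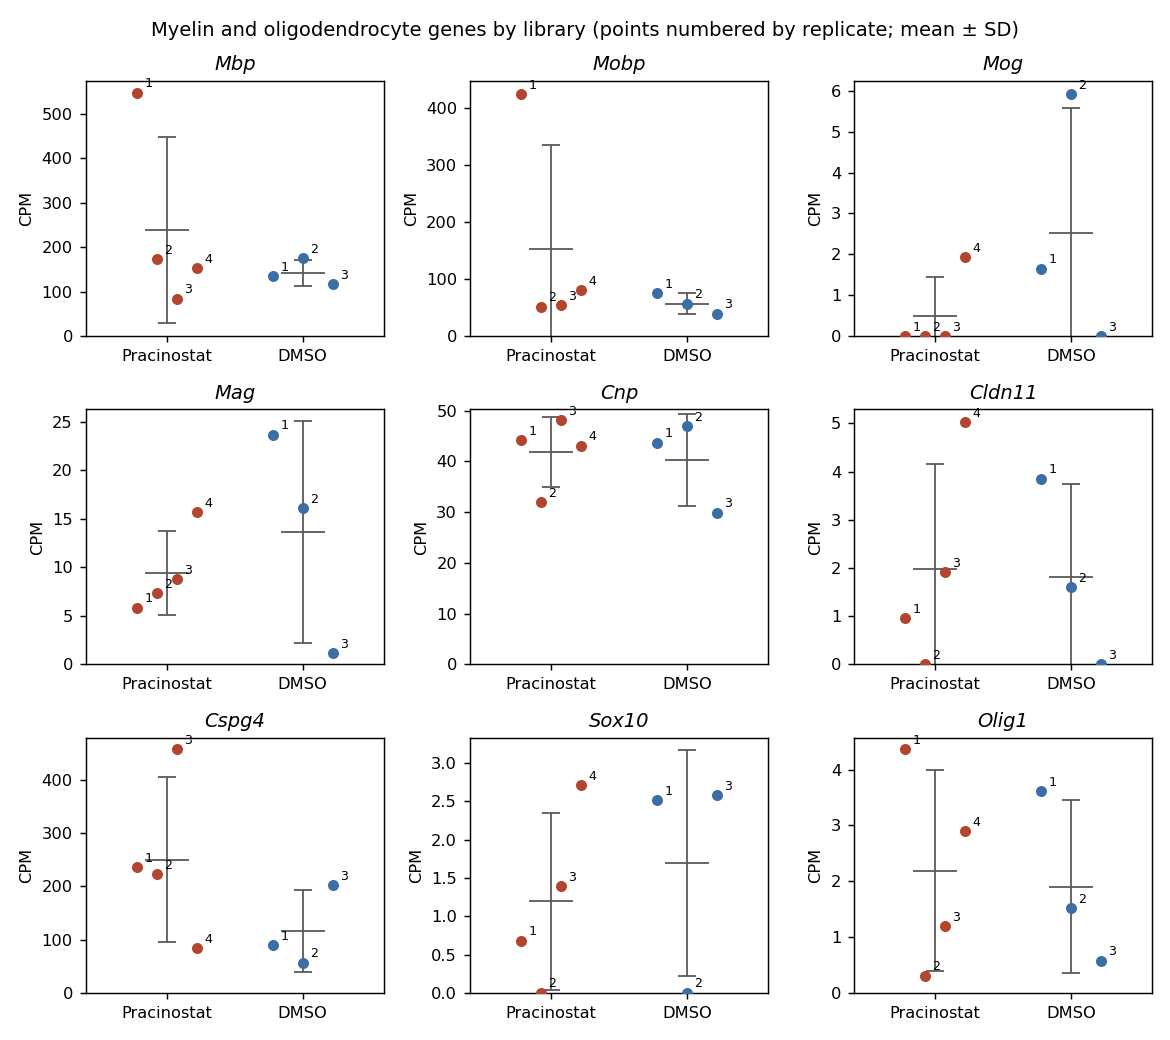
CPM (linear axis, cut at 0) of each of the 9 genes in 4 Pracinostat and 3 DMSO libraries, with points numbered by replicate and the mean ± SD in grey. Mbp and Mobp are far up only in Pracinostat 1 (548 and 425 CPM), Cnp is level, and Cspg4 is highest in Pracinostat 3 (458 CPM).

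The other myelin protein genes did not share the high values of Pracinostat replicate 1. Cnp, the cyclic nucleotide phosphodiesterase of non-compacted myelin, stood at 44.2, 32.0, 48.1 and 43.1 CPM with Pracinostat and 43.7, 47.0 and 29.9 CPM with DMSO, a log2 fold change of 0.06 ± 0.24. It was the most even of the 6 myelin protein genes across libraries. Mag, the adhesion molecule of the innermost wrap facing the axon, stood at 5.86, 7.37, 8.79 and 15.7 CPM with Pracinostat and 23.7, 16.1 and 1.16 CPM with DMSO. Within DMSO it ranged from 18 to 301 counts, so its fold change (-0.53 ± 0.76) lies within the spread of the controls.

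The 2 remaining myelin genes were near the limit of detection. Mog, an immunoglobulin-family protein of the outermost myelin surface, had 0 counts in Pracinostat libraries 1 to 3 and 20 counts in replicate 4, against 21, 74 and 0 counts with DMSO. A count of 0 allows up to 0.177 to 0.203 CPM in those libraries, for counting error only. Cldn11, the claudin of myelin's tight junctions, stood at 0.954, 0, 1.92 and 5.03 CPM with Pracinostat and 3.85, 1.6 and 0 CPM with DMSO. Both groups thus contained libraries with and without these transcripts, and the fitted log2 fold changes (-2.40 ± 2.04 for Mog and 0.11 ± 1.60 for Cldn11) carry errors near or above their size.

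The ratios of these transcripts to each other therefore differed between libraries, and the cells they came from were not tested. The ratio of Mbp to Cnp was 12.4, 5.38, 1.74 and 3.54 with Pracinostat and 3.07, 3.73 and 3.92 with DMSO. Mobp over Cnp reached 9.63 in Pracinostat replicate 1, with all others between 1.12 and 1.87. Mag over Cnp moved on its own, at 0.133, 0.230, 0.183 and 0.363 with Pracinostat and 0.541, 0.342 and 0.0388 with DMSO. In DMSO replicate 3 and Pracinostat replicate 2, Mog and Cldn11 both had 0 counts. There Mbp still stood at 117 and 172 CPM, and Cnp at 29.9 and 32.0 CPM. Mbp and Mobp together made up 95.0% of the summed CPM of the 6 myelin protein genes in Pracinostat replicate 1 and between 70.0 and 85.0% of it elsewhere.

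A wider list of 23 myelin genes, none among the 9, held 21 in the table, of which 15 passed the low-count filter. None passed the test in either direction, 6 fold changes were positive and 9 negative, and their median was -0.34, beside 0.02 over all 15822 genes tested. In Pracinostat replicate 1, which had the most genes detected (19244), 3 of the 15 lay above all 6 other libraries and 12 lay within their range. The share of all genes that were highest in that library was not computed, so 3 of 15 is a description only. One of the 3 was Bcas1, a gene of newly myelinating oligodendrocytes, at 118, 15.9, 24.7 and 29.0 CPM with Pracinostat and 17.1, 23.8 and 8.82 CPM with DMSO (log2 fold change 1.50 ± 0.79). The others, named after their values were seen, were Plekhb1, at 42.2 CPM with the others between 2.78 and 10.3 CPM, and Aspa, the aspartoacylase of oligodendrocytes, at 6.0 CPM with the others between 0 and 4.32 CPM.

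Ermn, a cytoskeletal protein of late oligodendrocytes, stood at 1.09, 0, 0.529 and 0.967 CPM with Pracinostat and 5.82, 8.88 and 0 CPM with DMSO (-2.91 ± 1.48), with overlapping groups. The 21 genes together held 0.0112 ± 0.00697% of counts (SD, n = 4) with Pracinostat and 0.00855 ± 0.0057% (SD, n = 3) with DMSO (two-sided exact permutation p = 0.686, adjusted p = 0.8 over 9 lists; the smallest possible p is 0.0286). This difference turned to -0.000311 percentage points without Pracinostat replicate 1 and to -0.000443 without DMSO replicate 3.

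**Figure D2:**
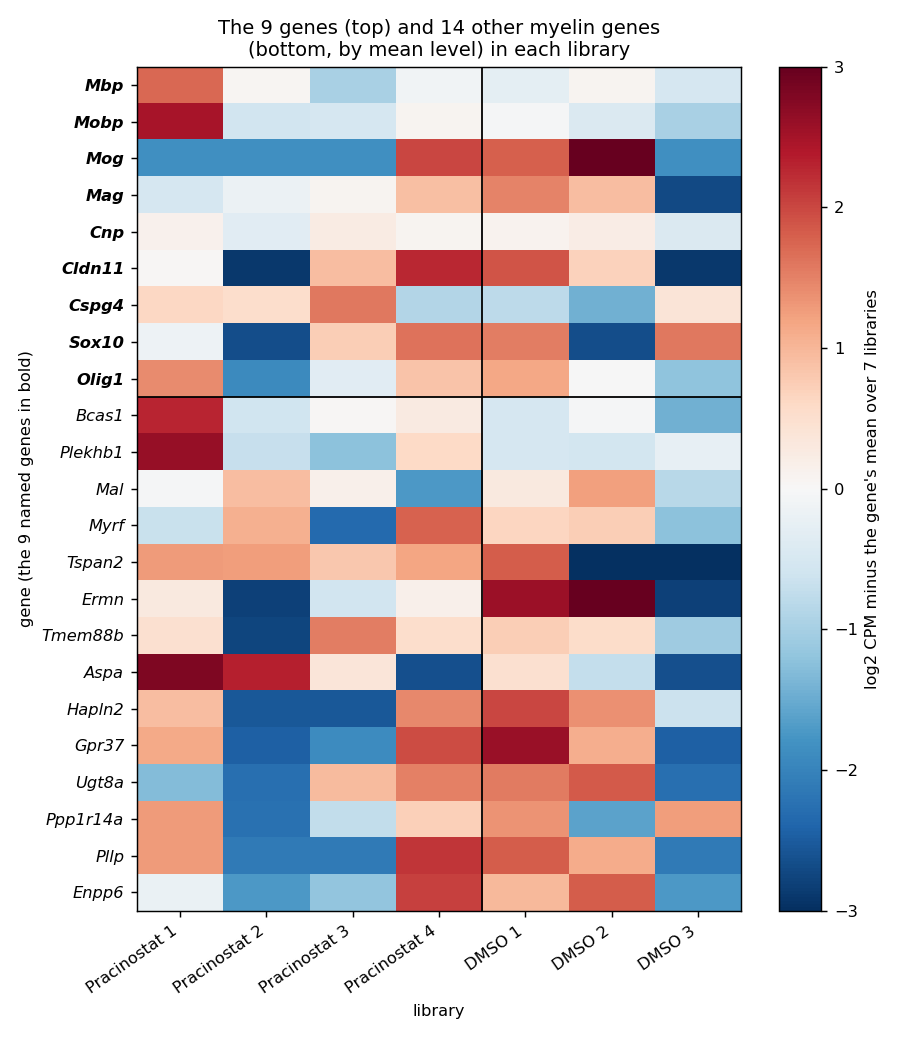
Log2 CPM (prior count 2) minus each gene's mean over the 7 libraries, for the 9 genes (top, bold) and 14 other myelin genes (bottom, by mean level), with Pracinostat libraries left of the line and DMSO libraries right. Mbp, Mobp, Olig1, Bcas1, Plekhb1 and Aspa are highest in Pracinostat 1. Mag, Cldn11 and Ermn are low in DMSO 3, where Mag was at 1.16 CPM. Cldn11 and Ermn had 0 counts in Pracinostat 2 as well as in DMSO 3.

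Pracinostat replicate 1 also carried transcripts of other stromal cells. Its 10 fibroblast genes held 0.0971% of counts, where the other Pracinostat libraries lay between 0.0156 and 0.0269%, and Col1a1, a collagen of fibroblasts, was at 439.9 CPM. DMSO replicate 2 was as rich in these (0.146%, Col1a1 at 702 CPM) with Mbp at 175 CPM and Mobp at 56.4 CPM, so high fibroblast transcripts did not always come with high Mbp and Mobp. The 12 neuron markers summed to 34.5 CPM in Pracinostat replicate 1 and lay between 15.3 and 23.9 CPM elsewhere. Of 11 astrocyte markers the sum was 148 CPM, within the 93.5 to 161 CPM of the others. Markers of Schwann cells, which make peripheral myelin, summed to 3.48 CPM there. The part of these cells in the Mbp and Mobp values was not tested.

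Cspg4 moved separately from the myelin genes. It stood at 236, 223, 458 and 83.5 CPM with Pracinostat and 89.2, 56.4 and 203 CPM with DMSO. Pracinostat libraries 1 to 3 lay above the DMSO range, but Pracinostat replicate 4 lay inside it, so the groups overlapped. The average was 249.9 ± 155 CPM (SD, n = 4) with Pracinostat and 116 ± 76.7 CPM (SD, n = 3) with DMSO, a log2 fold change of 1.11 ± 0.70. The sign did not depend on 1 library, but the size did: the log2 fold change was 0.64 ± 0.64 without Pracinostat replicate 3 and 1.78 ± 0.74 without DMSO replicate 3.

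Cspg4 and the myelin transcripts peaked in different libraries, but Pracinostat replicate 1, the highest in Mbp and Mobp, was also the second highest in Cspg4 (236 CPM). In Pracinostat replicate 3, where Cspg4 peaked, Mbp had its lowest value (83.8 CPM). DMSO replicate 3 had the highest Cspg4 of the controls, and the lowest Mag of all 7 libraries. The ratio of Cspg4 to the summed CPM of the 6 myelin protein genes was 0.230, 0.848, 2.33 and 0.279 with Pracinostat and 0.316, 0.187 and 1.08 with DMSO. It was thus above 1 in 1 library of each group.

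Most other genes of precursor cells did not peak with Cspg4 either. Exceptions at low counts in Pracinostat replicate 3 included Olig2 (22 counts, 1.45 CPM) and Cacng4 (33 counts, 2.18 CPM), each highest of all libraries there. Pdgfra and Olig2 were named after their values were seen. Pdgfra, a receptor carried by precursors, stood at 3.41, 0, 1.06 and 3.87 CPM with Pracinostat and 4.09, 4.16 and 3.86 CPM with DMSO. Ptprz1, a receptor phosphatase of glial precursors, had 0 counts in Pracinostat libraries 2 and 3, where Cspg4 stood at 223 and 458 CPM (log2 fold change -1.96 ± 1.40). Vcan, the proteoglycan versican, was the most abundant of the list, at 167.5, 82.3, 21.2 and 81.8 CPM with Pracinostat and 167.0, 138 and 148 CPM with DMSO, and it was lowest in the library where Cspg4 was highest. Vcan is also expressed by monocytes.

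Of 18 other precursor genes, all in the table, 11 passed the filter and none passed the test, with 6 fold changes positive, 5 negative and a median of 0.07. Tnr, the matrix glycoprotein tenascin-R, was at 0.07 ± 0.83. Cacng4, a regulatory subunit of glutamate receptors in precursors, stood at 1.64, 0, 2.18 and 1.26 CPM with Pracinostat and had 0 counts in each DMSO library. The 18 genes held 0.0109 ± 0.00649% of counts (SD, n = 4) with Pracinostat and 0.0178 ± 0.000937% (SD, n = 3) with DMSO (exact permutation p = 0.143, adjusted p = 0.8). The difference of -0.00691 percentage points became -0.000369 without Vcan, a setting chosen after seeing the data. Without Vcan they summed to 27.1, 12.2, 9.13 and 40.9 CPM with Pracinostat and 21.0, 30.0 and 26.1 CPM with DMSO, lowest in the same replicates 2 and 3.

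Genes of pericytes and smooth muscle, the other common carriers of NG2, had, where Cspg4 peaked, a summed level that was the median of the 7 libraries. The 16 mural genes summed to 160 CPM in Pracinostat replicate 1 and to 35.1, 48.1 and 38.2 CPM in Pracinostat libraries 2 to 4, against 74.1, 133 and 47.2 CPM with DMSO. Pdgfrb, the pericyte growth factor receptor, was at 8.27 CPM in Pracinostat replicate 3 and between 6.58 and 30.1 CPM elsewhere. Rgs5, a pericyte regulator of G protein signalling, was at 12.5 CPM there, the highest of its group (log2 fold change over the groups -0.91 ± 0.47), and Abcc9, a potassium channel subunit of pericytes, was at 6.15 CPM, the highest of the 7 libraries (0.93 ± 1.06). Of 11 mural genes tested 4 fold changes were positive and 7 negative (median -0.23), none passed the test, and the share of counts gave an exact permutation p of 0.6 (adjusted p = 0.8).

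**Figure D3:**
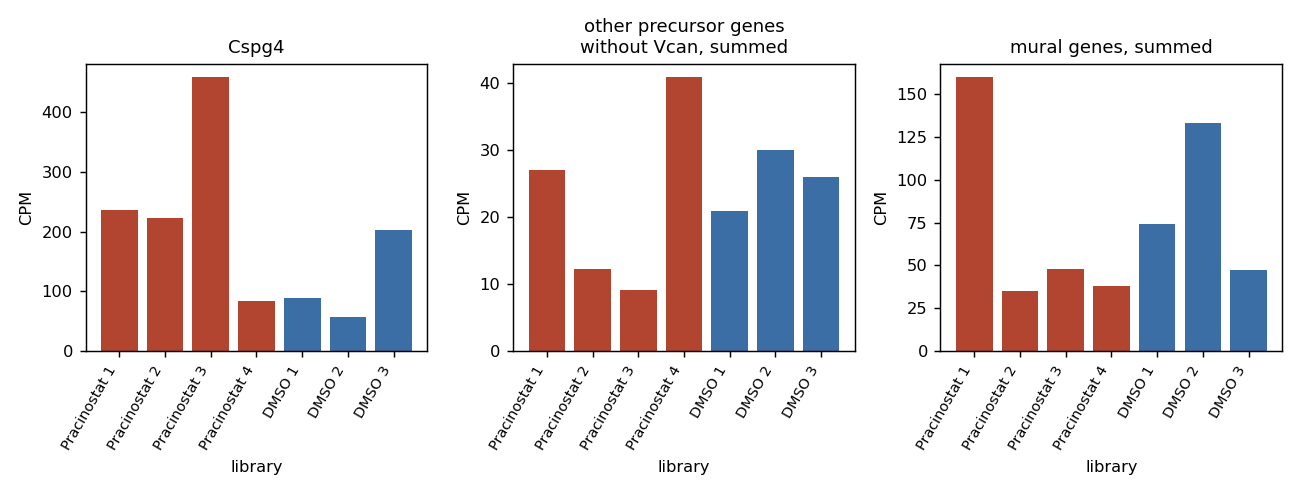
CPM by library of Cspg4 (left), of 17 other precursor genes summed without Vcan (middle) and of 16 mural genes summed (right), with Pracinostat in red and DMSO in blue. Cspg4 is highest in Pracinostat 3 (458 CPM), where the precursor sum is lowest (9.13 CPM) and the mural sum is 48.1 CPM.

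Myeloid markers moved both ways in that same library. Of the 12, 6 had their highest value of the 7 libraries there, 2 their lowest (Cd68 at 846 CPM and Tyrobp at 146 CPM, named after their values were seen) and 4 lay between. The shares of all genes that were highest or lowest in that library were not computed, so these counts are a description only. Pracinostat replicate 3 had Itgam at 2580 CPM, above a range of 1318 to 1692 CPM elsewhere, and Tmem119, a microglial membrane protein, at 379.8 CPM, above 141 to 272 CPM. Its 12 myeloid markers together held 1.35% of counts, a share in which the most abundant markers weigh most, and 0.905 to 1.03% elsewhere. DMSO replicate 3, the control library with most Cspg4, also had the most Tmem119 of the controls (256 CPM) but the least Itgam. The part of myeloid cells in the Cspg4 level was not tested.

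The 2 transcription factor genes were barely detected. Sox10, which activates myelin genes directly, had 10, 0, 21 and 28 counts with Pracinostat and 32, 0 and 40 counts with DMSO. Olig1, a basic helix-loop-helix factor of the lineage, had 64, 5, 18 and 30 counts with Pracinostat and 46, 19 and 9 counts with DMSO. Their log2 fold changes were -0.51 ± 1.66 for Sox10 and 0.20 ± 1.17 for Olig1, both smaller than their errors. Olig1 was highest in Pracinostat replicate 1, at 4.36 CPM against 0.304 to 3.62 CPM elsewhere, while Sox10 was at 0.682 CPM there. In Pracinostat replicate 2 Sox10 had 0 counts and Olig1 had 5, with Mbp at 172 CPM and Cspg4 at 223 CPM in the same library.

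In the fit over all genes, 9 of the 9 passed the low-count filter and 0 were called at an edgeR adjusted p under 0.05, as were 0% of the 15822 genes tested (661 had an unadjusted p under 0.05). DESeq2 gave 8 of the 9 (all but Mobp) an adjusted p and called 0 of them, beside 0.16% of 16878 genes. The groups overlapped for all 9, whereas they did not overlap for 6.1% of all genes tested. Fold changes were positive for 6 of the 9 and for 52.3% of all genes, and the median was 0.11 for the 9 and 0.02 for all. Since the 9 were chosen with these values known, nothing follows from that comparison.

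**Figure D4:**
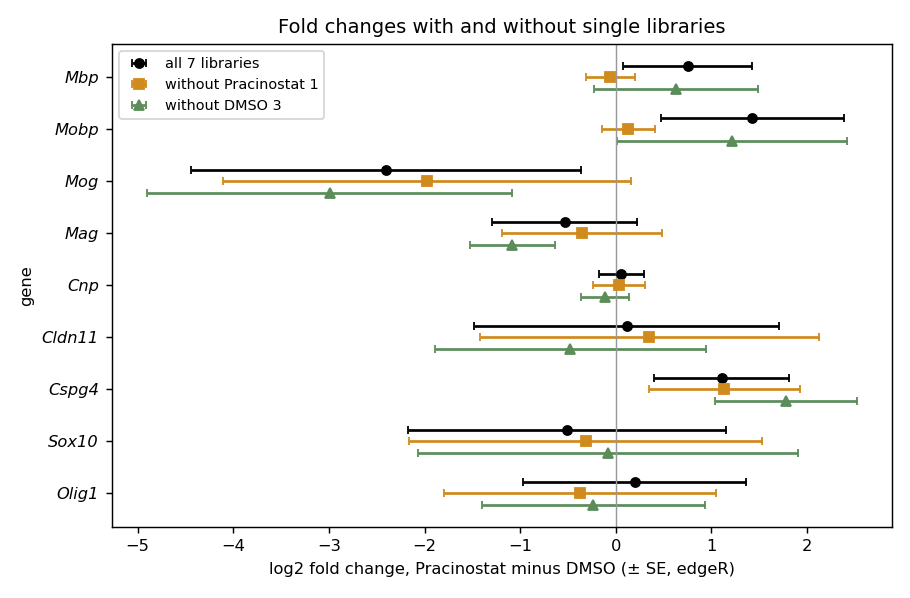
Log2 fold change, Pracinostat minus DMSO (± SE, edgeR), of the 9 genes with all 7 libraries (black), without Pracinostat 1 (orange) and without DMSO 3 (green). Mbp and Mobp lie near 0 without Pracinostat 1 (-0.06 and 0.13), and Cspg4 stays positive in all 3 fits (1.11, 1.14 and 1.78).

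By the root-mean-square difference of centred log2 CPM over the 7 libraries, among 10010 named genes, the pattern nearest to that of Mbp was that of Sgms2 (0.36), a sphingomyelin synthase, then Ptgs2 (0.39), the cyclooxygenase COX-2, and Clec4e (0.41), the macrophage receptor Mincle. Ptgs2 stood at 398, 335, 92.7 and 163 CPM with Pracinostat and 153, 190.3 and 141 CPM with DMSO, so like Mbp it was highest in Pracinostat replicate 1 and lowest in replicate 3. The nearest to Cspg4 were Rcn1 (0.37), a calcium-binding protein of the endoplasmic reticulum, Igfbp5 (0.44), which binds insulin-like growth factors, and Dis3 (0.45), a nuclease of the RNA exosome. Rcn1 stood at 10.6, 15.6, 18.8 and 6.19 CPM with Pracinostat and 6.45, 4.80 and 13.8 CPM with DMSO. None of these 6 genes belongs to the oligodendrocyte lists.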

How the data were processed

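Bulk RNA-seq of CD11b-sorted cells gave 1 table of 7 libraries (4 Pracinostat, 3 DMSO), grouped by title. As deposited, it holds expected counts in whole numbers with no normalization. RSEM, STAR, Trim Galore and DESeq2 are among the tools in the submitters' processing notes, with the build GRCm39. Roles, versions, annotation and strand setting are not stated, so reads of Cnp and Dnajc7, which overlap on opposite strands, may not be fully separated. Per the labels' protocols, stranded low-input total RNA libraries were sequenced.

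The whole table was fitted with edgeR 4.0.16 in R 4.3.3 (TMM, filterByExpr with a minimum count of 10, robust quasi-likelihood fit, two-sided test, Benjamini-Hochberg over 15822 genes, threshold 0.05). The gene test was checked on simulated counts. Log2 fold changes are Pracinostat minus DMSO ± SE. Shares of library counts of 9 marker lists were compared by two-sided exact permutation over 35 splits. No single list could pass on its own after adjustment over the 9 lists. No library pair agreed within sampling noise (the lowest chi-square over its degrees of freedom was 32.5). Alternatives used DESeq2 1.42.0, limma 3.58.1 voom, other scalings and filters, a replicate block and libraries left out. P-values measure the spread between these libraries, which may be technical.

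The 9 genes and all lists were chosen with earlier results of these data known. Named were the 9 genes, the 2 genes of smallest p and the 2 of highest level in each list, and the 3 genes nearest in pattern to Mbp and to Cspg4; those of the other cell types are mostly given as sums, and some list genes are not reported here by name.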

Additional observations from a re-analysis of the deposited data

Results flagged for a closer look

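Within the Pracinostat group 52 values were screened for a single library lying far from the other 3 by Dixon's 95% limit. This held for 9. Pracinostat replicate 1 held 7 of the 9 and replicate 4 held 2. Chance flags about 1 in 20 if values are independent and normally distributed. The screened values overlap, since Col1a1 is part of the fibroblast share and Pdgfrb of the mural share. Mobp and Mog were chosen with their values known. Mog and Dcn had counts in only 1 Pracinostat library, a pattern that exceeds the limit by construction. The number flagged is therefore a description and cannot be set against that rate. Groups of 3 were not screened.

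In Pracinostat replicate 1, Mobp was at 425 CPM (51.1 to 80.8 in the other Pracinostat libraries, 39.0 to 74.9 with DMSO) and Bcas1 was at 118 CPM (15.9 to 29.0, and 8.82 to 23.8 with DMSO). Mbp, at 548 CPM in that library, did not exceed the limit. In the same library Pdgfrb was at 30.1 CPM (6.58 to 8.71, and 9.28 to 20.2 with DMSO), Dcn was at 0.818 CPM (0 in the others, 0 to 1.84 with DMSO) and Col1a1 was at 439.9 CPM (11.7 to 23.9, and 12.4 to 702 with DMSO). Its mural genes held 0.0153% of counts (0.0034 to 0.00492%, and 0.00462 to 0.0138% with DMSO), and its fibroblast genes held 0.0971% (0.0156 to 0.0269%, and 0.0129 to 0.146% with DMSO).

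In Pracinostat replicate 4, Mog was at 1.93 CPM (0 in the others, 0 to 5.92 with DMSO), which rests on 20 counts, and Rgs5 was at 3.48 CPM (11.0 to 12.5, and 8.57 to 23.8 with DMSO).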

How the results depend on the processing

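The count of 0 genes called stayed at 0 in 12 of 16 alternatives; it was 63 with no low-count filter, 27 with DESeq2, 4 with the replicate number as a block, and 0 to 3 with 1 library left out (3 without DMSO replicate 3). Of the 9 genes, 0 were called in 15 of the 16. The exception was the replicate block, which leaves out Pracinostat replicate 4 and called 1, Cspg4 (log2 fold change 1.50 ± 0.19, edgeR adjusted p = 0.0365), a gene chosen with these values known; over its other alternatives the adjusted p was 0.636 to 1. The labels do not say that equal numbers mark paired samples, and correlations of the deviations were 0.0445, -0.0352 and 0.0728 for equal numbers and ran from -0.074 to 0.0511 for unlike ones. In that block fit Cldn11 was at -1.61 and Olig1 at -0.27, and by differences within numbers the shares of endothelial (0.000392) and astrocyte genes (0.000528 percentage points) turned positive, with a smallest possible exact p of 0.25.

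The fold changes of Mobp, Mog, Cspg4 and Sox10 kept their sign in every alternative that gave a value. With limma-voom Mag was at 0.31 and Olig1 at -0.05, and without both collagen-rich libraries (DMSO 2 and Pracinostat 1) Olig1 was at -0.51 and Mog at -0.35. With 1 library left out the log2 fold change ran from -0.06 to 1.03 for Mbp, -1.08 to 0.13 for Mag, -0.12 to 0.18 for Cnp, -0.94 to 1.30 for Cldn11, -0.38 to 1.06 for Olig1, 0.64 to 1.78 for Cspg4, 0.13 to 1.72 for Mobp, -2.99 to -0.78 for Mog and -1.30 to -0.09 for Sox10, so the size of these changes with the library left out. A minimum count of 30 removed 2 of the 9 genes, and without Pracinostat replicate 4, or in the block, Mog was not tested.

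No share of counts of the 9 lists passed in any alternative (adjusted p 0.771 to 1). With libraries left out, or by differences within numbers, too few splits remain for any p under 0.05, so those alternatives could not pass. With all libraries, several lists would have to reach the smallest possible p at once. Nothing about stability follows from this. With 1 library left out the difference in percentage points ran from -0.000443 to 0.00515 for other myelin genes, -0.00951 to -0.00433 for precursor genes, -0.00454 to 0.000858 for mural, -0.0435 to 0.0233 for fibroblast, -0.0109 to 0.000392 for endothelial, -0.00208 to 0.000528 for astrocyte, -0.000549 to 0.000141 for Schwann cell and -0.0186 to 0.125 for myeloid genes. As mean log2 CPM, precursor genes differed by 0.0867 and Schwann cell genes by 0.171, both turning positive. Without both collagen-rich libraries fibroblast genes differed by 0.00431 and Schwann cell genes by 0.000153. Without Bcas1, chosen after seeing the data, other myelin genes differed by -0.000238. The causes were not tested. Depth limits Mog, Cldn11, Sox10 and Olig1, whose largest count was 74.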

Other observations

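Markers of the other brain and vessel cells did not pass the test between the groups. For the shares of counts, no single list could have passed after adjustment over the 9 lists. Endothelial genes held 0.0284 ± 0.014% of counts (SD, n = 4) with Pracinostat and 0.034 ± 0.00476% (SD, n = 3) with DMSO (two-sided exact permutation p = 0.6), with 10 of 12 fold changes negative and 0 called. Pracinostat replicate 4, the highest in Cldn11 of the 7 libraries, had the lowest endothelial share (0.0102%), with Cldn5, the claudin of the blood-brain barrier, at 0.870 CPM against 11.0 to 30.0 CPM in the others (named after its values were seen). Astrocyte genes held 0.0135 ± 0.00272% with Pracinostat and 0.0143 ± 0.00224% with DMSO (exact permutation p = 0.686). Neuron genes held 0.00255 ± 0.000518% with Pracinostat and 0.00204 ± 0.000478% with DMSO (exact permutation p = 0.314). Schwann cell genes held 0.000369 ± 0.000141% with Pracinostat and 0.000615 ± 0.000705% with DMSO (exact permutation p = 0.714). Fibroblast genes gave an exact permutation p of 0.686 and myeloid genes 0.8, and over the 9 lists each adjusted p was 0.8.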
